A study of Homo sapiens with 32 samples.

Results

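ETV1, ETV4 and ETV5, the PEA3 group of ETS transcription factors, were followed together with ETS1, ETS2 and the ETS repressors ERF, ETV3 and ETV6 in HEK293 cells stimulated through the EGF receptor and the angiotensin II receptor AT1R. These 8 genes, of the 57773 in the count tables, were found by their gene symbol. They were chosen by name with their responses to EGF and AII+EGF after 6 h already known. The values of those 2 comparisons are therefore a description without a test, whereas the comparisons of AII with control and of AII+EGF with EGF, the interaction, and all comparisons after 24 h were tested. HEK293 is an established cell line from human embryonic kidney. All cells, controls included, were transiently transfected with a plasmid for human AT1R, were moved to medium without serum, and were then left without stimulus (control) or stimulated. The stimuli were AII (angiotensin II, 1 nmol/l), EGF (epidermal growth factor, 10 µg/l) and both together (AII+EGF), and cells were harvested after 6 h or 24 h. Each condition had 4 libraries, except AII+EGF after 24 h with 3. Transfection was transient, and cells with and without the plasmid cannot be told apart in RNA of the whole culture.

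ETS factors share a DNA-binding domain that reads a GGAA core. The PEA3 factors are activators known from growth factor and RAS-ERK signalling, and in the developing kidney ETV4 and ETV5 act in the branching of the ureteric bud. Their genes are repressed by CIC, a repressor that loses its grip on DNA when ERK is active, and their proteins are marked for degradation by the ubiquitin ligase built with COP1 and DET1. ETS1 and ETS2 are activators that ERK phosphorylates. ERF is a repressor that ERK drives out of the nucleus, ETV3 is a repressor linked to growth arrest, and ETV6 (TEL) is a repressor known from leukaemia fusions.

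The libraries differed more after 24 h than after 6 h. Total counts were 3881841 to 8540815 per library after 6 h and 6646227 to 33070903 after 24 h, protein-coding genes held 81.4% to 84.7% and 20.8% to 63.4% of them, and U1 small nuclear RNA took 0.0317% to 0.300% and 8.90% to 57.2%. The biological coefficient of variation, the spread between libraries of a condition beyond counting error, was 10.6% after 6 h and 29.1% after 24 h. VIM, LIN28B, NEFM and the transfected AGTR1 were abundant in every library, and KRT8 and KRT18 were detected throughout. Of the markers of other cell types reported here, INS was at 0 in all libraries, and PTPRC, ALB, MYH6 and CDH5 had 0 to 7 counts per library. The labels do not say whether libraries of a condition came from separate cultures, so that the p-values measure the spread between these libraries, which may be technical.

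In the annotation on GRCh37, ETV1 (ENSG00000006468) lies on chr7:13930854-14031050, ETV4 (ENSG00000175832) on chr17:41605212-41656988 and ETV5 (ENSG00000244405) on chr3:185764103-185828107, all on the minus strand. ERF (ENSG00000105722) lies on chr19:42751721-42759280 and ETV3 (ENSG00000117036) on chr1:157090983-157108266, both on the minus strand as well. ETS1 (ENSG00000134954) lies on chr11:128328656-128457453 on the minus strand, ETS2 (ENSG00000157557) on chr21:40177107-40196879 and ETV6 (ENSG00000139083) on chr12:11802608-12048311 on the plus strand. All 8 are protein coding. The ETV5 span holds the antisense gene ETV5-AS1 and overlaps DGKG, and the ETV4 span overlaps DHX8. The ERF span overlaps ENSG00000268643, and that of ETV3 overlaps CYCSP52. The ETS1 span overlaps ETS1-AS1, and that of ETS2 overlaps ENSG00000205622. DGKG and ENSG00000268643 lie on the same strand as the member they overlap. No gene overlaps ETV1 or ETV6. Because the strand setting of the counting is not stated, reads of overlapping genes may not be separable.

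RefSeq promoter sequences on GRCh38.p14 were at hand for 5 of the 8 members, ETV1, ERF, ETV3, ETS2 and ETV6, in 13 windows, and the 250 bases before each start were searched on both strands. The CIC octamers (TGAATGAA, TGAATGGA, TCAATGAA or TCAATGGA) were found in 1 of these 5 members, the most upstream start of ETV1, compared with 3.92% of 27305 genes in the table (3.18% of windows). ETV1 held 6 of the 13 windows, 1 of them with the octamer, whereas the 27305 genes had 35116 windows. It was thus searched at more places than most genes, and nothing is read from the share of members. The ETS core GGAAGT was found in 1 of the 5, ETV3, at 2 places, compared with 23.0% of genes (19.5% of windows). No member window held a CArG box, the site of serum response factor, which 1.44% of genes had (1.16% of windows). A match of letters does not show that a factor binds there, and the windows of ETV4, ETV5 and ETS1 were not searched. The 2 windows with a match are shown 5′ to 3′ on the strand of the gene, with the octamer of ETV1 and the ETS cores of ETV3 in capitals. The ETV1 window is chr7:13991426-13991675, minus strand, and its octamer begins 125 bases before the start. The ETV3 window is chr1:157138396-157138645, minus strand, with the ETS cores beginning 145 and 28 bases before the start.
ETV1: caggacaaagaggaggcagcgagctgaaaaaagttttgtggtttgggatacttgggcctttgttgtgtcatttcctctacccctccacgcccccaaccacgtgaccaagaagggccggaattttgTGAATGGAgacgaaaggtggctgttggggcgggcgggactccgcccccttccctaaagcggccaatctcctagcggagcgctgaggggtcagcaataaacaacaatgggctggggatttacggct
ETV3: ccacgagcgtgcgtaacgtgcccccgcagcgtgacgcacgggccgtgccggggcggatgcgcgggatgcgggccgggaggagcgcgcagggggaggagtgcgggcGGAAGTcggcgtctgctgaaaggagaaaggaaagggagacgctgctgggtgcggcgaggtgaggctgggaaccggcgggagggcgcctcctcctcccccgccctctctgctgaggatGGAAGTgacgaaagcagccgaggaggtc

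Levels between genes were compared as FPM (fragments per 1000000, on TMM effective library sizes) per kilobase of annotated exon. In control cells after 6 h the order of the mean levels was ETS2 (8.09 ± 0.506 FPM per kb, SD, n = 4), ERF (6.47 ± 0.530), ETV3 (6.24 ± 0.865), ETV6 (1.12 ± 0.266), ETV4 (0.222 ± 0.118), ETS1 (0.0602 ± 0.0307), ETV5 (0.0238 ± 0.0282) and ETV1 (0.0186 ± 0.0216). The libraries of ERF and ETV3 overlapped, as did those of each neighbouring pair from ETV4 down to ETV1. The 3 PEA3 genes and ETS1 were thus the 4 lowest members without stimulus, and the remaining 4 were all above 0.800 FPM per kb in every control library. With AII+EGF after 6 h, ETV5 (1.59 ± 0.419 FPM per kb) ranked 4, above ETV6 (1.31 ± 0.310) though with overlapping libraries, ETV4 (0.818 ± 0.159) and ETV1 (0.480 ± 0.211) came next, and ETS1 (0.114 ± 0.0515) was last. The lengths come from a later annotation than the one used for counting.

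**Figure D1:**
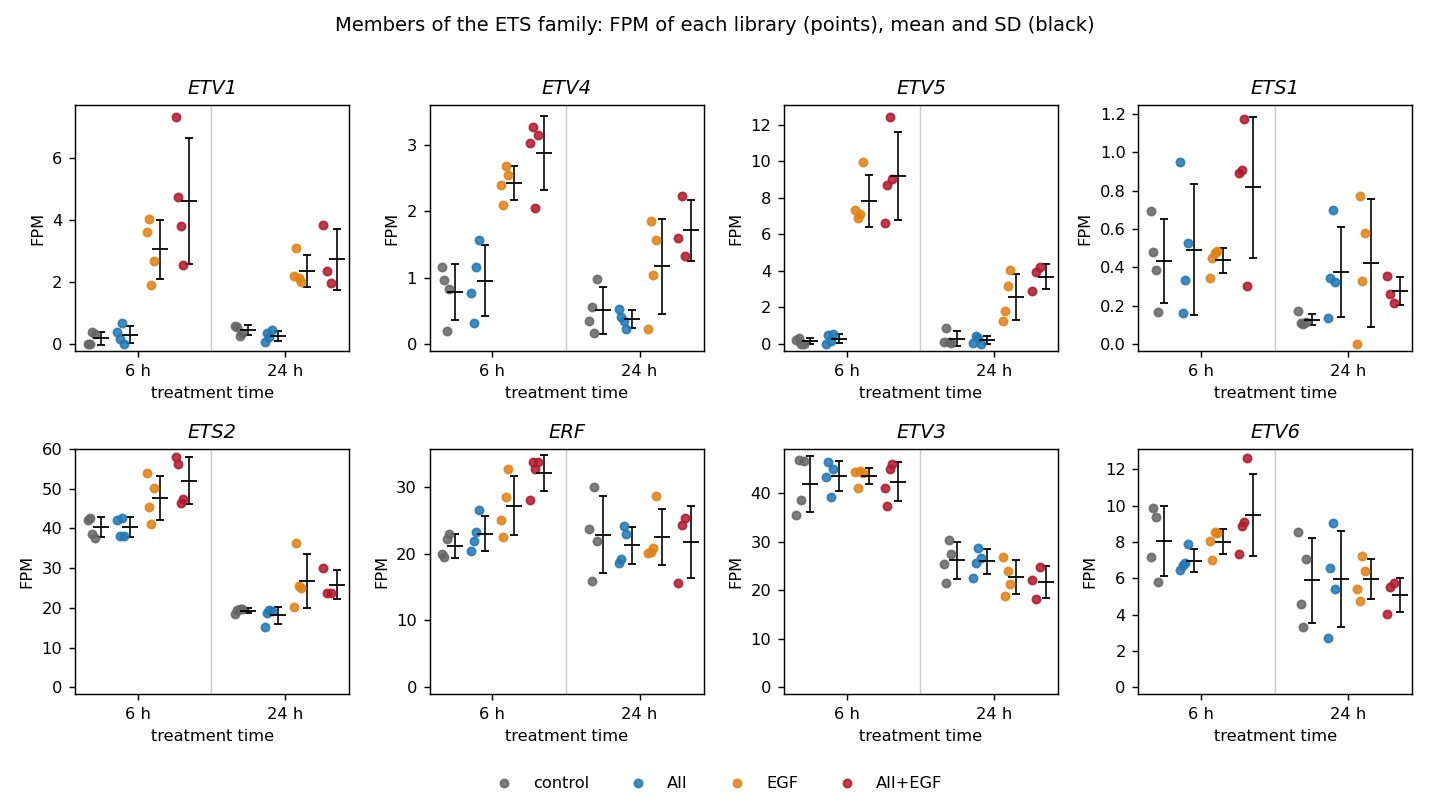
FPM (normalised read fragments) of the 8 members in each library, for 4 conditions after 6 h and after 24 h; points are libraries, the black dash and bar beside them are the mean and SD, and each y axis starts at about 0. ETV1, ETV4 and ETV5 with EGF or AII+EGF after 6 h lie above all control libraries, and ETV3 overlaps control throughout.

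ETV5 was close to silent without EGF. The 4 control libraries after 6 h had 0.231, 0.319, 0 and 0 FPM (1, 2, 0 and 0 counts), and the 4 AII libraries had 0, 0.480, 0.167 and 0.525 FPM. With EGF they had 7.36, 6.87, 7.10 and 9.94 FPM (43, 46, 45 and 82 counts), and with AII+EGF 6.61, 8.72, 12.4 and 9.02 FPM (37, 48, 85 and 60 counts). Every library with EGF in the medium was above every library without it. Pooled over libraries, EGF gave a ratio to control of 58.0 (95% interval from counting error alone 19.6 to 283.6, 216 against 3 counts) and AII+EGF one of 68.2 (23.0 to 333, 230 against 3 counts). The fitted log2 fold change was 5.84 (SE 0.503) with EGF and 6.08 (SE 0.493) with AII+EGF, and by size ETV5 ranked 1 among the genes with an FDR below 0.05 in both comparisons. Because control rests on 3 counts, leaving out the control library with 2 of them (replicate 2, c02) raised the fold changes to 6.94 and 7.17. ETV5-AS1 had 0 counts in all control and AII libraries after 6 h, 1 to 5 counts per library with EGF and 0 to 3 with AII+EGF.

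ETV1 was the next member in size of response. Control libraries after 6 h had 0, 0, 0.383 and 0.331 FPM (0, 0, 2 and 2 counts) and AII libraries 0.380, 0.160, 0.667 and 0 FPM. EGF libraries had 3.59, 4.03, 1.89 and 2.67 FPM (21, 27, 12 and 22 counts) and AII+EGF libraries 7.33, 4.72, 3.81 and 2.56 FPM (41, 26, 26 and 17 counts). The groups with and without EGF did not overlap. The fitted log2 fold change was 4.05 (SE 0.647) with EGF and 4.64 (SE 0.614) with AII+EGF. The pooled ratio was 16.5 (counting interval 6.21 to 62.1, 82 against 4 counts) with EGF and 24.4 (9.29 to 91.3, 110 against 4 counts) with AII+EGF. Where EGF was given, the ETV1 libraries numbered 01 to 08 in the labels were higher than those numbered 09 to 16. The means were 3.81 and 2.28 FPM for EGF and 6.02 and 3.18 FPM for AII+EGF (2 libraries each). Without EGF they were not, with 0 and 0.357 FPM in control and 0.270 and 0.334 FPM with AII. ETV5 had the reverse order with EGF, with means of 7.12 and 8.52 FPM for EGF and 7.67 and 10.7 FPM for AII+EGF.

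ETV4 was detected in control cells and changed less. Its control libraries had 1.16, 0.957, 0.192 and 0.827 FPM (5, 6, 1 and 5 counts), and the AII libraries had 0.761, 0.320, 1.17 and 1.57 FPM. EGF libraries had 2.40, 2.09, 2.68 and 2.55 FPM (14 to 21 counts) and AII+EGF libraries 3.04, 3.27, 2.05 and 3.16 FPM (14 to 21 counts). Again no library with EGF fell into the range of the libraries without it. The fitted log2 fold change was 1.64 (SE 0.411) with EGF and 1.88 (SE 0.406) with AII+EGF. ETV1 and ETV4 stayed below the abundance limit of 5 FPM used for a call, with means of 3.05 and 2.43 FPM for EGF and 4.60 and 2.88 FPM for AII+EGF.

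Of the activators ETS1 and ETS2, the first was near the detection limit and the second was abundant. ETS1 had 1 to 3 counts per control library after 6 h, 1 to 5 with AII, 2 to 4 with EGF, and 2 to 8 where both were given (0.430, 0.492, 0.437 and 0.818 FPM on average), and it did not pass the filter on low counts at either time. ETS2 had 42.1, 42.8, 38.5 and 37.7 FPM in control and 42.2, 38.1, 42.7 and 38.0 FPM with AII. With EGF it had 53.9, 45.3, 41.2 and 50.2 FPM, partly overlapping control, and with AII+EGF 57.9, 56.3, 46.4 and 47.5 FPM, all above control. The log2 fold changes were 0.24 (SE 0.0984) and 0.37 (SE 0.0985). The AII+EGF libraries of ETS2 with low label numbers lay at 56.3 and 57.9 FPM and those with high numbers at 46.4 and 47.5 FPM.

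Among the repressors, ERF was the only one whose AII+EGF libraries lay above all control libraries after 6 h. It had 19.9, 19.5, 22.2 and 23.0 FPM in control, 20.3, 21.9, 23.2 and 26.5 FPM with AII, 25.0, 22.6, 28.4 and 32.7 FPM with EGF, and 28.1, 33.8, 32.6 and 33.7 FPM with AII+EGF. The EGF libraries overlapped control at their lower end. The log2 fold change was 0.37 (SE 0.121) with EGF and 0.60 (SE 0.120) with AII+EGF, a fold of 1.52 that was just above the limit of 1.5 and fell below it without control replicate 1 (log2 fold change 0.58), control replicate 2 (0.56), AII+EGF replicate 2 (0.58) or AII+EGF replicate 4 (0.58). ETV3 lay between 35.4 and 46.9 FPM in all 16 libraries, with log2 fold changes of 0.05 (SE 0.0976) and 0.01 (SE 0.0984). ETV6 lay between 5.79 and 12.6 FPM, with log2 fold changes of -0.01 (SE 0.192) and 0.24 (SE 0.190), and all conditions overlapped for both genes.

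A member counted as called when edgeR's quasi-likelihood test gave an FDR below 0.05, the fold exceeded 1.5 and the higher group averaged over 5 FPM. Of the 8 members, 7 passed the filter on low counts at both times. ETV1, ETV4 and ETV5 passed it only through the libraries with EGF, where they are high. After 6 h each was over the limit of the filter (1.67 CPM) in 8 of 8 libraries with EGF and 0 of 8 without, and after 24 h (0.831 CPM) in 7, 5 and 7 of 7 libraries with EGF and 1 of 8 without. The counts of members therefore support nothing at either time. The same holds for p-values obtained after this filter for these 3 genes with EGF or AII+EGF against control. With EGF after 6 h, 1 member was called higher (ETV5), where 1.04% of 18618 genes tested were called higher. By FDR alone it was 3 members (ETV1, ETV4, ETV5; 3.60% of genes), and the same 3 did not overlap control (6.61% of genes). With AII+EGF after 6 h, 2 members were called higher (ETV5 and ERF, compared with 1.39% of genes). By FDR alone it was 5 (ETV1, ETV4, ETV5, ERF, ETS2; 4.0% of genes), and 5 did not overlap control (6.77% of genes). No member was called lower. Counting protein-coding genes alone, ETV1 was called as well with AII+EGF, where its mean was 5.504 FPM in place of 4.60. The members were selected on these comparisons, and nothing is read from these counts.

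**Figure D2:**
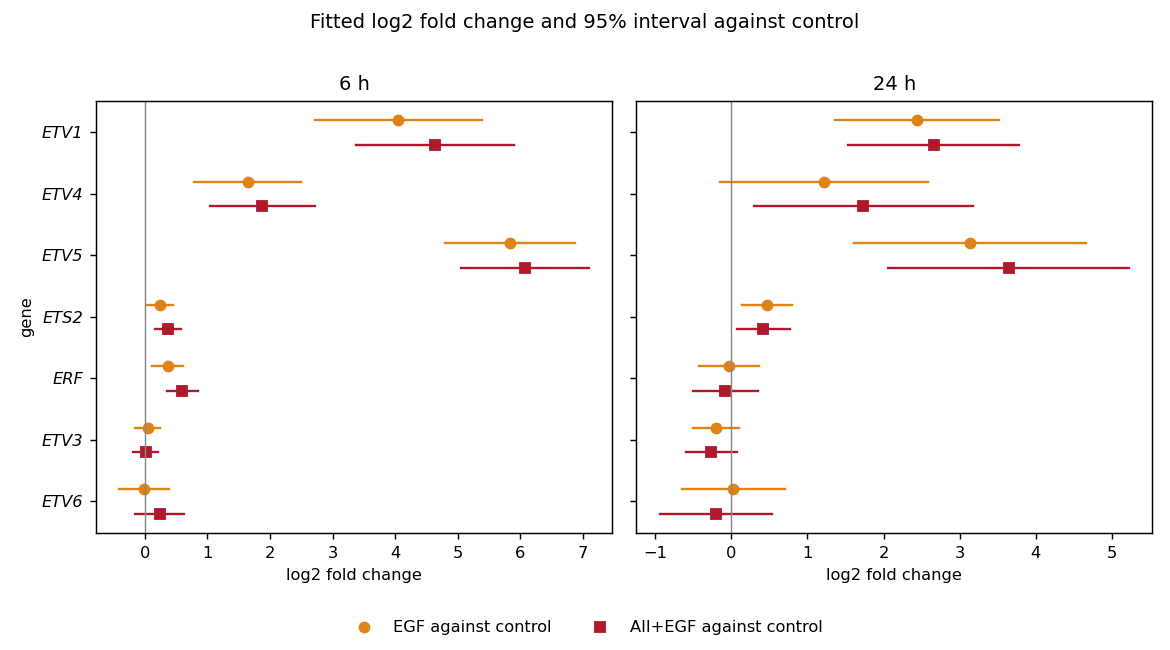
Fitted log2 fold change against control of the 7 members tested (points) with 95% intervals (lines), for EGF (circles) and AII+EGF (squares) after 6 h and 24 h. ETV5 and ETV1 lie farthest to the right in every comparison, at 5.84 and 4.05 with EGF after 6 h and at 3.14 and 2.44 after 24 h, and the intervals of ETV4 and ETV5 are wider after 24 h.

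AII alone was tested next. After 6 h, 0 of 7 tested members passed edgeR's quasi-likelihood test, as did 0% of all genes (845 genes at an unadjusted p under 0.05, none of them a member; DESeq2 called 0 members). The log2 fold changes were 0.84 for ETV1 (95% interval -1.32 to 2.998), 1.04 for ETV5 (-1.15 to 3.22) and 0.22 for ETV4 (-0.83 to 1.26), each with an adjusted p of 0.99 in edgeR's test. The interval is widest for ETV5, whose AII libraries had 0 to 3 counts, so that a response of moderate size was not detectable at this depth. For the abundant members the intervals were narrow, from -0.21 to 0.21 for ETS2, -0.16 to 0.25 for ETV3, -0.15 to 0.37 for ERF and -0.64 to 0.20 for ETV6.

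AII+EGF was compared with EGF to ask whether the receptor crosstalk that the study examined changed these genes beyond EGF. A difference that was not detected is not shown to be absent, as the intervals of ETV1, ETV4 and ETV5 are wide. After 6 h AII+EGF and EGF did not differ for any member at an FDR below 0.05 (0 of 7, and 0% of genes; 1352 genes at an unadjusted p under 0.05, none a member; DESeq2 0 members). The mean with AII+EGF was above that with EGF in 6 of the 7 members tested. The median log2 difference was 0.23 in the members and 0.0002 over all genes. Nothing is read from this count, since the members were chosen with their responses to EGF and AII+EGF known. The log2 difference was 0.58 for ETV1 (95% interval -0.16 to 1.32, adjusted p 0.70), 0.23 for ETV5 (-0.25 to 0.72, adjusted p 0.81) and 0.24 for ETV4 (-0.43 to 0.91, adjusted p 0.86), all by edgeR's test. For ERF it was 0.23 (-0.0037 to 0.47), with an unadjusted p of 0.053 and an adjusted p of 0.68 in edgeR. ETV6 was at 0.25 (-0.13 to 0.63), ETS2 at 0.12 (-0.07 to 0.32) and ETV3 at -0.04 (-0.23 to 0.16). Within the libraries numbered 01 to 08, both AII+EGF libraries of ETV1 (4.72 and 7.33 FPM) and of ERF (28.1 and 33.8 FPM) were above both EGF libraries, and within those numbered 09 to 16 the libraries overlapped for both genes. With these numbers as a block the differences were 0.57 (adjusted p 0.63) and 0.24 (adjusted p 0.57) in edgeR. The transfected receptor AGTR1 was itself higher with AII+EGF than with EGF by 0.45 on the log2 scale (SE 0.0762, adjusted p 0.093 in edgeR), and its part in these differences was not tested.

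The interaction asks whether the log2 effect of AII+EGF departs from what AII and EGF add up to alone. After 6 h, 0 of 7 members passed edgeR's test, as did 0% of genes (1491 at an unadjusted p under 0.05, none a member; DESeq2 0 members). ETV6 had the smallest unadjusted p of the members (0.099), with an interaction of 0.47 (95% interval -0.10 to 1.04). ERF was at 0.12 (-0.23 to 0.48) and ETS2 at 0.12 (-0.17 to 0.41). For ETV1 and ETV5 the interaction was -0.25 (-2.56 to 2.06) and -0.80 (-3.06 to 1.45), intervals that leave the sum of effects undetermined because control and AII rest on few counts.

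**Figure D3:**
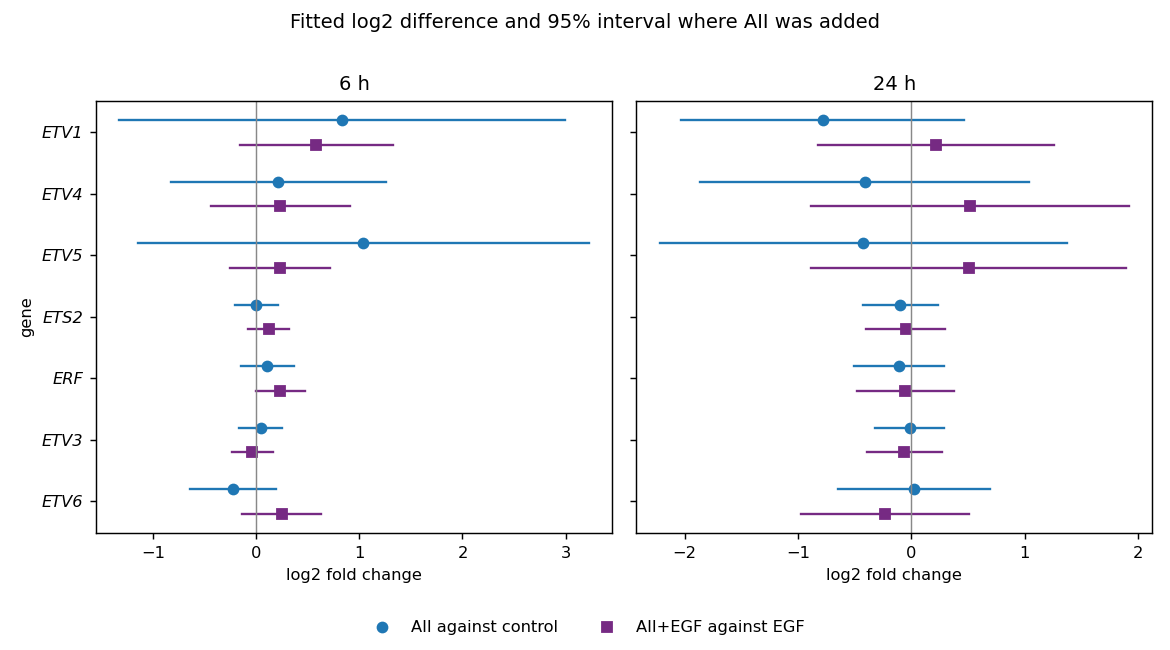
Fitted log2 difference of the 7 members tested with 95% intervals, for AII against control (circles) and AII+EGF against EGF (squares) after 6 h and 24 h. Every interval includes 0, and those of ETV1, ETV4 and ETV5 are the widest, for example -1.15 to 3.22 for ETV5 with AII after 6 h.

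After 24 h the values came from other libraries than those after 6 h. The members were chosen with earlier results of these data known, so that the 24 h values are no independent check. ETV5 had 0.0845, 0.889, 0.106 and 0.0575 FPM in control (1, 16, 2 and 1 counts) and 0.0664, 0.410, 0.348 and 0 FPM with AII. EGF libraries had 1.27, 1.78, 3.16 and 4.06 FPM (11, 23, 58 and 49 counts), and the 3 AII+EGF libraries had 2.89, 3.93 and 4.21 FPM (49, 30 and 79 counts). All libraries with EGF were above all controls, including control replicate 2 (b02), which stood apart from the other 3. The log2 fold change was 3.14 (SE 0.731) with EGF and 3.64 (SE 0.760) with AII+EGF, with adjusted p of 0.15 and 0.11 in edgeR's test. Without control replicate 2, the library with the highest control value, they were 4.96 (adjusted p 0.022 in edgeR) and 5.46 (adjusted p 0.0097). Nothing is read from these p-values.

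ETV1 had 0.591, 0.556, 0.266 and 0.345 FPM in control after 24 h and 0.0664, 0.342, 0.209 and 0.434 FPM with AII. EGF gave 2.19, 3.10, 2.12 and 1.99 FPM and AII+EGF 3.84, 2.36 and 1.97 FPM, again without overlap with control. The log2 fold change was 2.44 (SE 0.519, unadjusted p 0.00012, adjusted p 0.11 in edgeR) with EGF and 2.66 (SE 0.541, adjusted p 0.096) with AII+EGF. These were values side by side with the 6 h fold changes of 4.05 and 4.64, and the difference between times was not tested, since the 6 h values chose the member.

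ETV4 had 0.338, 0.556, 0.159 and 0.977 FPM in control, 0.231, 1.86, 1.03 and 1.58 FPM with EGF and 1.60, 2.23 and 1.33 FPM with AII+EGF. EGF replicate 1 (2 counts) lay within the controls, and the AII+EGF libraries lay above them. The log2 fold changes were 1.22 (SE 0.658, adjusted p 0.66 in edgeR) and 1.74 (SE 0.694, adjusted p 0.89). ETS2 had 18.4 to 19.7 FPM in control, 15.1 to 19.5 FPM with AII, 20.2, 36.2, 25.5 and 25.1 FPM with EGF and 30.0, 23.7 and 23.8 FPM with AII+EGF. The EGF and AII+EGF libraries of ETS2 did not overlap control, with log2 fold changes of 0.47 (SE 0.157, adjusted p 0.37 in edgeR) and 0.42 (SE 0.169, adjusted p 0.89).

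The repressors showed no such separation after 24 h. ERF lay at 15.9 to 30.0 FPM in control, 18.5 to 24.2 with AII, 20.1 to 28.7 with EGF, and between 15.6 and 25.4 with AII+EGF, with log2 fold changes of -0.02 (95% interval -0.42 to 0.37) for EGF and -0.08 (-0.50 to 0.35) for AII+EGF. ETV3 was at -0.20 (-0.51 to 0.10) and -0.26 (-0.59 to 0.07), and ETV6 at 0.03 (-0.65 to 0.70) and -0.21 (-0.94 to 0.53). ETS1 had 2 counts in each control library, 0 to 10 with EGF, and between 2 and 6 with AII+EGF.

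By edgeR's quasi-likelihood test with the same call rule, 0 members were called after 24 h with EGF or AII+EGF, where 0.0316% and 0.0271% of 22174 genes tested were called higher, by FDR alone as well. Unadjusted p were under 0.05 for 3 members with EGF and 4 with AII+EGF (1881 and 1198 of all genes). DESeq2 gave an adjusted p of 0.0018 for ETV1 and 0.0035 for ETV5 with EGF, and it gave no adjusted p for ETV1, ETV4 and ETV5 with AII+EGF. In EGF, 3 of the 7 tested members (ETV1, ETV5, ETS2) did not overlap control, compared with 2.35% of genes, and in AII+EGF 4 (ETV1, ETV4, ETV5, ETS2), compared with 3.99% of genes. Nothing is read from these counts, since ETV1, ETV4 and ETV5 passed the filter only through libraries with EGF. For the same reason nothing is read from the edgeR and DESeq2 p-values of these 3 genes against control after the filter. Counting protein-coding genes alone, with the library numbers as a block, gave calls for ETV1 and ETV5, with adjusted p of 0.027 and 0.032 for EGF and of 0.021 and 0.016 for AII+EGF in edgeR. The share of protein-coding counts was 35.6% to 63.4% in control, 36.0% to 57.1% with EGF, and from 24.3% up to 60.1% with AII+EGF, and its part in the result was not tested. The block of library numbers nearly coincides with the columns named as filtered, whose part was not tested either.

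AII after 24 h, AII+EGF against EGF, and the interaction gave 0 called members and 0% of genes each in edgeR (552, 747 and 525 genes at an unadjusted p under 0.05, none a member, and 0 members by DESeq2). For AII against control the log2 fold change was -0.78 for ETV1 (95% interval -2.03 to 0.46), -0.43 for ETV5 (-2.22 to 1.37) and -0.41 for ETV4 (-1.86 to 1.04). For AII+EGF against EGF it was 0.22 (-0.83 to 1.26), 0.51 (-0.88 to 1.90) and 0.52 (-0.89 to 1.92), and the other members were between -0.23 and -0.05. The interaction was 1.00 for ETV1 (-0.63 to 2.62), 0.93 for ETV5 (-1.34 to 3.20) and 0.93 for ETV4 (-1.09 to 2.95).

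Single members were also compared by exact two-sided permutation tests of the mean FPM, 48 in all, without EGF and AII+EGF against control after 6 h. With 4 against 4 libraries the smallest p possible is 0.029, and with 4 against 3 it is 0.057. The smallest value was reached in 3 tests, ETV1, ETV5 and ETS2 with EGF after 24 h (exact p 0.029 each), with differences in mean of 1.91, 2.28 and 7.43 FPM and 4 of 4 libraries above all controls. With AII+EGF after 24 h ETV1, ETV4, ETV5, ETS1 and ETS2 were higher in 3 of 3 libraries (exact p 0.057 each). For ETS1, library b15 had 2 counts, as did each control library. It was higher only through its smaller library size, so nothing is read from ETS1 here. No test passed the Benjamini-Hochberg adjustment (smallest adjusted p of the exact tests 0.30). With these smallest possible p, none could pass unless most of the 48 tests reached the smallest value, so no conclusion is drawn from this.

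The rest of the ETS family was compared to show where the members stood. Of 20 other ETS genes, 7 passed the filter after 6 h and 0 were called by edgeR with EGF or AII+EGF. By FDR alone ELK1, a ternary complex factor that ERK phosphorylates, rose by 0.39 on the log2 scale with EGF and 0.51 with AII+EGF (adjusted p 0.0055 and 0.00035 in edgeR), and ELF4 rose by 0.46 with both (adjusted p 0.0020 and 0.0017). ELF2 had -0.24 with AII+EGF (adjusted p 0.054 in edgeR) and was lower by FDR alone with protein-coding genes only (-0.25, adjusted p 0.030). The list was chosen with earlier results of these data known, and these genes were named after their values were seen. Their p-values after 6 h are a description and support nothing. The median log2 fold change was 0.16 and 0.10 in these 7 genes and -0.01 over all genes in both comparisons. After 24 h 11 of the 20 were tested and 0 were called by edgeR.

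**Figure D4:**
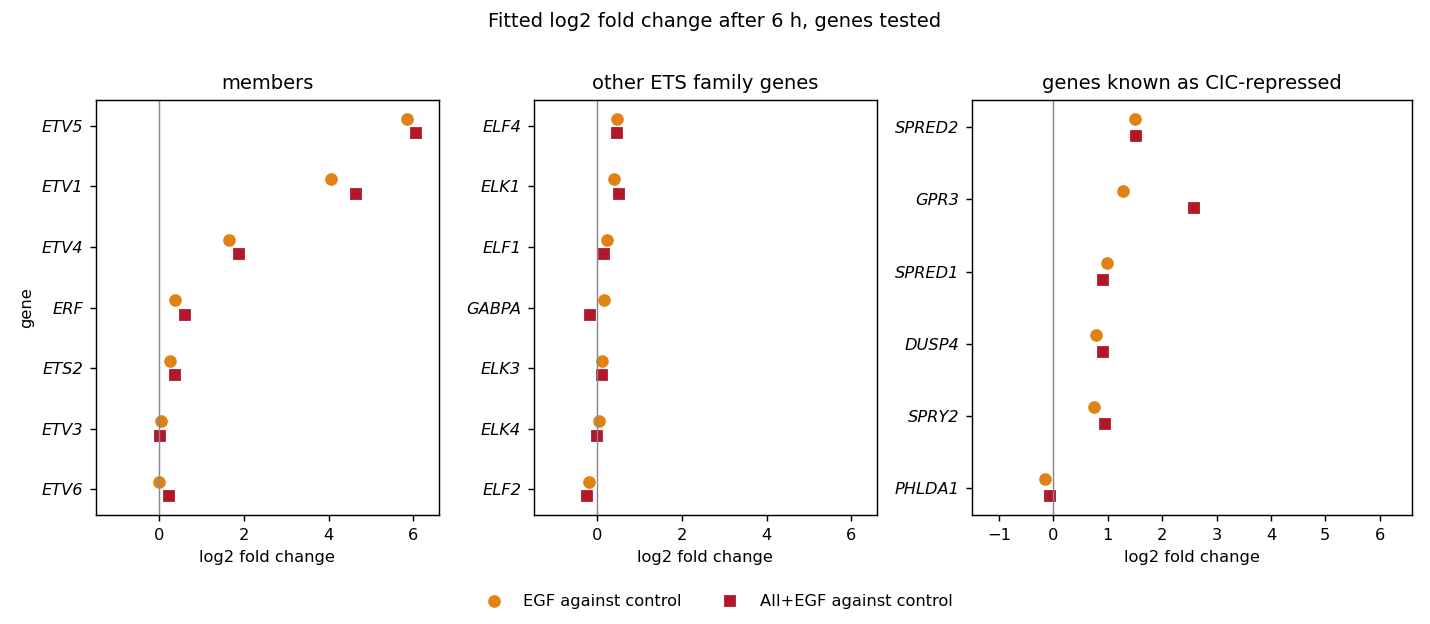
Fitted log2 fold change against control after 6 h for EGF (circles) and AII+EGF (squares), in the 7 members tested, the 7 other ETS genes tested and the 6 genes tested of those known as repressed by CIC. ETV5, ETV1 and ETV4 lie between 1.64 and 6.08, whereas the other ETS genes lie at or below 0.51. The CIC-repressed genes shown reach 1.501 with EGF (SPRED2) and 2.59 with AII+EGF (GPR3), the latter within the range of the PEA3 genes. SPRY4 of the same list did not pass the filter on low counts and is not shown.

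Genes known to be repressed by CIC, the repressor of the PEA3 genes, were chosen as a list of 9 with earlier results of these data known, and 6 passed the filter after 6 h. With EGF 4 were called higher by edgeR and 0 lower, where 1.04% of all genes tested were called higher (1.39% with AII+EGF). Nothing is read from this count, given how the list was chosen. SPRED2 and SPRED1, which inhibit RAS-ERK signalling, rose by 1.501 and 0.98 on the log2 scale, the ERK phosphatase DUSP4 by 0.79 and the receptor tyrosine kinase inhibitor SPRY2 by 0.75. With AII+EGF the same 4 were called, with 1.52, 0.91, 0.91 and 0.94, and GPR3, a constitutively active receptor coupled to Gs, had 2.59 (SE 0.446) and passed by FDR alone. PHLDA1 had -0.16 and -0.07. The median of the 6 was 0.89 and 0.93, compared with -0.01 over all genes, and 0 of the 8 tested after 24 h were called. GPR3 differed between AII+EGF and EGF by 1.31 (SE 0.363), with an adjusted p of 0.68 in edgeR. SPRY4, another gene of the list, did not pass the filter on low counts. Without that filter it had 3.34 (SE 0.786) with EGF and 3.69 (SE 0.765) with AII+EGF after 6 h and passed by FDR alone. These values lie within the range of the PEA3 genes. SPRY4 was named after its values were seen, and nothing is read from them.

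The regulators of the PEA3 factors and the cascade above them gave no call after 6 h. Of CIC, ATXN1, ATXN1L, RFWD2 (COP1), DET1 and TRIB1, which passed the filter after 6 h of 7 genes listed, 0 were called by edgeR. CIC had log2 fold changes of -0.14 with EGF and -0.01 with AII+EGF, and RFWD2 had -0.04 and -0.06. DET1, a part of the same ligase, had -0.39 (adjusted p 0.11 in edgeR) and -0.46 (adjusted p 0.057), and with protein-coding genes only it was lower by FDR alone with AII+EGF (-0.47, adjusted p 0.034). TRIB1, an adaptor of COP1, rose by 0.46 with AII+EGF by FDR alone (adjusted p 0.0037). Of 10 RAS, RAF, MEK and ERK genes 0 were called, and MAP2K1, which encodes MEK1, rose by 0.42 and 0.50 by FDR alone (adjusted p 0.021 and 0.0049). Of 14 genes known as ETS targets, among them matrix metalloproteinases and the urokinase system, 7 were tested. Of these 1 was called, the chemokine receptor CXCR4, with 0.89 and 1.03 (adjusted p 0.0010 and 0.00017 in edgeR), where 1.04% and 1.39% of all genes were called higher. The lists were chosen with earlier results of these data known, so that these counts and p-values after 6 h are a description and support nothing. After 24 h 0 genes of these 3 lists were called by edgeR in any comparison.

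Over the 16 libraries after 6 h, log2(FPM + 0.5) of ETV5 followed most closely that of ZCCHC12 (Pearson r 0.98), SPRED2 (0.98), KCTD12 (0.97), EGR1 (0.97) and TNC (0.97), out of 13001 genes. ZCCHC12 had 1.22, 1.53, 10.8 and 11.2 FPM in control, AII, EGF and AII+EGF, and EGR1 had 2.25, 3.26, 51.5 and 57.7 FPM. For ETV4 the closest were KLF13 (0.92), EGLN1 (0.91), LEF1 (0.91), PFKP (0.90) and SPRED1 (0.90). These genes had lower folds than ETV4, for instance KLF13 with 68.0, 67.1, 103.5 and 118.8 FPM. Among the members themselves r was 0.89 between ETV1 and ETV5, 0.86 between ETV4 and ETV5, 0.81 between ERF and ETV5, 0.75 between ETS2 and ETV5 and 0.10 between ETV3 and ETV5. The points share the 4 conditions, and the values describe these libraries only. Centred within the runs of library numbers, 3 of the 5 genes of ETV4 and 2 of the 5 of ETV5 stayed among the closest.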

How the data were processed

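RNA of transiently transfected HEK293 cells was sequenced in pairs after ribosomal RNA removal. The values the authors deposited are unnormalised counts of reads on each gene. By the study's methods and the submitters' processing notes, adaptors were removed with cutadapt 1.8.1, reads were mapped with TopHat2 2.0.14 to hg19 and counted with featureCounts 1.4.6, whereas the series' design text names HISAT2. The strand setting is not given in the sources used here. Of 32 libraries, 31 had a column of counts, since none was mapped to AII+EGF replicate 2 (b08) after 24 h. After 24 h, 8 columns are named as filtered, without explanation. They are b01 to b07 and b15, so that this naming nearly coincides with the run of library numbers. Protein-coding genes held 36.0% to 63.4% of counts in the filtered columns and 20.8% to 41.6% in the others. U1 took 8.90% to 26.0% and 19.5% to 57.2%. Replicates were numbered in accession order.

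With edgeR 4.0.16 (R 4.3.3), counts were normalised by TMM and tested by the quasi-likelihood F test in one fit per time point with all 4 conditions, after filterByExpr (18618 and 22174 genes), with Benjamini-Hochberg adjustment over all genes tested. FPM are CPM values on TMM effective library sizes. Exact tests used SciPy. Exon lengths came from GENCODE on GRCh37. The edgeR procedure was tested on simulated data, in which only genes with more counts per library than ETV1, ETV4 and ETS1 were changed. It therefore says nothing on genes with so few counts. Intervals of pooled ratios cover counting error only. Alternatives were DESeq2 1.42.0, its size factors, no filter on low counts, FDR alone, the run of library numbers as a block, protein-coding genes only, both of these together, and each library left out. Named genes were the 8 members, up to 3 called genes per list and comparison by size of change, and the 5 genes most correlated with ETV4 and with ETV5. Other genes of the lists, such as PHLDA1, GPR3, ELK1, ELF2 and DET1, were named after their values were seen. The members and lists were chosen with earlier results of these data known. A further marker of another cell type is not reported here.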

Additional observations from a re-analysis of the deposited data

Results flagged for a closer look

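Of 56 groups of 4 libraries (8 members, both times), 6 held a library whose gap to the nearest of the others was large for the range of its group by Dixon's criterion, which chance alone meets in about 1 of 20 groups. After 24 h, ETV5 had 0.889 FPM in control replicate 2 (16 counts), compared with 0.0575 to 0.106 FPM in the other 3 controls. ERF had 28.7 FPM in EGF replicate 4, compared with 20.1 to 20.9 FPM. In control replicate 1 after 24 h, ETS2 had 18.4 FPM, compared with 19.6 to 19.7 FPM, and ETS1 had 0.169 FPM (2 counts), compared with 0.106 to 0.115 FPM from 2 counts as well. After 6 h, ETV5 had 9.94 FPM in EGF replicate 4, compared with 6.87 to 7.36 FPM, and ETV3 had 41.1 FPM in EGF replicate 2, compared with 44.1 to 44.5 FPM.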

How the results depend on the processing

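The members called with EGF after 6 h numbered 3 in place of 1 by FDR alone. With AII+EGF after 6 h they numbered 5 in place of 2 by FDR alone, 3 with protein-coding genes only, with or without the run of library numbers as a block (ETV1 added), and 1 to 2 when single libraries were left out. ERF was no longer called without control replicate 1 (c01), control replicate 2 (c02), AII+EGF replicate 2 (c08) or AII+EGF replicate 4 (c16), with folds of 1.496, 1.475, 1.49 and 1.495. Without the last of these the count was still 2, because ETV1, with a mean of 5.31 FPM, was called in place of ERF. After 24 h, in place of 0, protein-coding genes with the run of library numbers as a block gave 2 for EGF and 2 for AII+EGF (ETV1 and ETV5 in both), and protein-coding genes alone gave 1 for AII+EGF (ETV5, adjusted p 0.044 in edgeR). Of the other lists, AII+EGF after 24 h then gave a call for SPRED2 (without the filter on low counts or with protein-coding genes only) and for TIMP1 (without the filter). The FPM scale itself changes with protein-coding counts alone. ETV1 then averaged 5.512 FPM with EGF and 6.331 FPM with AII+EGF after 24 h. On all counts it averaged 2.35 and 2.722 FPM, below the limit of 5 FPM for a call. The cause of these changes after 24 h was not tested. DESeq2's size factors moved no count of called members. By FDR alone without the filter on low counts, ETV5 passed after 24 h with EGF (adjusted p 0.00092 in edgeR) and, with ETV1, with AII+EGF (6.1e-05 and 0.027), and with the block alone ETV1 passed with EGF (0.049) and AII+EGF (0.045). After 6 h, DESeq2 left ETV1 and ETV4 without an adjusted p in the comparisons with control that include EGF.

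No direction of ETV1, ETV4 or ETV5 with EGF or AII+EGF against control turned under any alternative. Directions that turned belonged to log2 differences near 0 or resting on few counts. With the run of library numbers as a block, ETV6 after 24 h was -0.01085 for AII and -0.003497 for EGF, and the interaction of ERF was -0.03138. With protein-coding genes and the block together, ETV6 was -0.002909 for AII and -0.01007 for EGF, ETV3 was 0.001289 for AII, and the interaction of ERF was -0.04678. With single libraries left out, AII against control after 6 h ranged from -0.02805 to 0.03618 for ETS2, -0.02271 to 0.10 for ETV3 and -0.10 to 0.55 for ETV4, and after 24 h from -0.25 to 0.05178 for ERF, -0.10 to 0.06629 for ETV3, -0.72 to 0.13 for ETV4, -0.26 to 0.27 for ETV6 and -0.96 to 1.4 for ETV5, where 1.4 was the value without control replicate 2 (b02). EGF against control after 24 h ranged from -0.17 to 0.14 for ERF and -0.17 to 0.25 for ETV6, and AII+EGF from -0.22 to 0.12 and -0.41 to 0.02017. AII+EGF against EGF ranged from -0.07327 to 0.01351 for ETV3 after 6 h, and after 24 h from -0.19 to 0.15 for ERF, -0.17 to 0.13 for ETS2, -0.12 to 0.42 for ETV1 and -0.16 to 0.04793 for ETV3. The interaction ranged after 6 h from -0.87 to 0.49 for ETV1 and -0.32 to 0.33 for ETV4, and after 24 h from -0.11 to 0.26 for ERF, -0.07644 to 0.23 for ETS2, -0.15 to 0.06224 for ETV3, -0.89 to 1.47 for ETV5 and -0.50 to 0.01993 for ETV6.

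The 3 exact tests under 0.05 were also 3 when counts were scaled to the protein-coding total, a choice made with the data seen. No paired analysis was possible because replicates carry no number in the labels. Depth limits ETV1, ETV4, ETV5 and ETS1 in cells without EGF, where 3 counts correspond to 0.4785 to 0.787 FPM after 6 h.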
